A study of Mus musculus with 8 samples.

Results

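The genes described here encode the subunits of the 5 enzyme complexes of oxidative phosphorylation in the inner mitochondrial membrane. They were chosen by the gene names of the non-control probes of the array. A probe counted as a member when this name began with Nduf, a letter for a complex I subunit class and a digit. Also counted were the names Sdha, Sdhb, Sdhc and Sdhd, and names that began with Uqcr, Cox and a digit from 4 to 8, or Atp5. This gave 128 of the 55681 probes on the array, which stand for 85 of its 34797 gene names. Of these 85 genes, 82 encode subunits or tissue isoforms of subunits. The other 3 carry such a name without being subunits: Cox4nb, Atp5s and Atp5sl are listed by RefSeq today as Emc8, Dmac2l and Dmac2. Ndufa4 and Ndufa4l2, once counted with complex I, were placed with complex IV, where the Ndufa4 protein is now known to reside.

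RNA came from the cerebral cortex of 8 male mouse pups of the inbred strain C57BL/6NCr at postnatal day 1.5, with 4 pups labelled control and 4 labelled ischemia and 1 array per pup. For the ischemia pups, clips had closed the uterine arteries of the anesthetised pregnant mother for 14 min at E16.5. Neither group carried a transgene or a deletion according to the labels, which do not say whether control mothers had a sham operation or which pups were littermates. The comparison asks how cortical gene expression in the newborn differed after that occlusion, and the p-values measure the spread between these pups only.

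Oxidative phosphorylation is the main source of ATP in the brain. Complex I (NADH dehydrogenase) and complex II (succinate dehydrogenase) pass electrons to ubiquinone, complex III (cytochrome bc1) passes them to cytochrome c, and complex IV (cytochrome c oxidase) passes them to oxygen. Complexes I, III and IV pump protons, and complex V (ATP synthase) lets the protons return through its membrane part Fo to drive ATP synthesis in its head F1. Most subunits are encoded in the nucleus and a few in mitochondrial DNA, and the core subunits that carry the catalytic centres are surrounded by accessory subunits needed for assembly and stability. Several cytochrome c oxidase subunits have isoforms that are made mainly in lung, muscle, testis or under low oxygen.

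The values are one-colour fluorescence intensities, given here as log2 of the processed signal above the array's own 75th percentile, which lay between 305.6 and 393.3. Signal was well above background for 47.6% to 51.7% of an array's non-control spots and saturated for 0. Probes that reached this mark on 4 or more of the 8 arrays were kept, and the brightest kept probe stood for its gene. This left 19772 genes, among them 82 of the 85 members and 79 of the 82 subunit genes. Cox7b2, Cox8b and Cox8c, isoforms known from testis or muscle, reached it on 0 of 8 arrays and were not tested, and the 82 tested members reached it on 8 of 8. All 8 arrays lay on 1 slide with the controls in one row and the ischemia arrays in the other, so row and group cannot be told apart. The cortical neuron markers fixed for the check (10 of 10, among them Tubb3, Snap25 and Tbr1) were all measured, as the labelled tissue requires.

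Nuclear respiratory factor 1 (NRF1) is a transcription factor known to bind the promoters of many respiratory genes, so its motif, GCGC and then any base and TGCGC, was looked for on both strands in the promoters listed by RefSeq (GRCm38.p6, 250 bases before to 50 after the start of each gene). A promoter was found for 69 of the 85 members. The motif stood in 17 of these 69 (24.6%) and in 5.19% of 27025 genes with a listed promoter. Windows of 30 bases are shown for 7 genes that differ widely in their measured difference between the groups, read along the gene's strand with the motif, or its reverse complement, in capitals.
Atp5k: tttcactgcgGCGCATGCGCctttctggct
Ndufs5: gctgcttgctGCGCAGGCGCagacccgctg
Atp5h: gaccccgacgGCGCAGGCGCcgcgcccgcc
Ndufa8: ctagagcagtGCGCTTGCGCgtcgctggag
Cox6a1: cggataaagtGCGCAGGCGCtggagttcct
Atp5c1: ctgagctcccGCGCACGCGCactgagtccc
Ndufa11: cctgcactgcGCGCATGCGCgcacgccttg
The Atp5k window is chr5:108434430-108434459 on the minus strand, the Ndufs5 window chr4:123718265-123718294 (minus), the Atp5h window chr11:115420041-115420070 (minus) and the Ndufa8 window chr2:36049349-36049378 (minus). The Cox6a1 window is chr5:115349056-115349085 (minus), the Atp5c1 window chr2:10080430-10080459 (minus) and the Ndufa11 window chr17:56717692-56717721 (plus). Each of the 7 motifs lies upstream of the annotated start, as in 13 of the 17 genes with the motif. The median difference between ischemia and control was -0.10 for the 17 tested genes with the motif and -0.09 for the 50 without it. The motif CCGGAAG, bound by ETS factors, stood in 23.2% of member promoters and 9.93% of all, and the YY1 motif GCCATCTT in 15.9% and 3.19%. The hypoxia response element core ACGTG stood in 27.5% and 21.8%. A match describes the letters in this window and does not show that a factor was bound.

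Transcripts of the respiratory chain and ATP synthase were slightly lower in the ischemia cortex for most members, and the difference of no single member passed the test. Of 82 tested members, 74 had a lower and 8 a higher mean in ischemia, with a median log2 difference of -0.09, a level lower by 5.9%, and a range from -0.39 (Ndufa4l2) to 0.07 (Ndufa10). Over all 19772 genes 57.0% were lower, with a median of -0.02. After quantile normalization 62 of 82 members were lower, with a median of -0.05. Relative to each gene's control mean, the members' array medians were -0.05, 0.06, 0.08 and -0.04 in control and -0.05, -0.09, -0.10 and -0.12 in ischemia, so ischemia replicate 1 lay among the controls.

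With limma and Benjamini-Hochberg adjustment over all genes, 0 members were called, where 1 of 19772 genes (0.00506%) was. The lowest adjusted p of a member was 0.283, for Atp5k. At an unadjusted limma p under 0.05, 11 members were lower, against 7.63% of all genes, and 0 were higher, against 3.24%. That count of lower members was 6 without control replicate 2, 5 without control replicate 3, 6 without ischemia replicate 2 and 6 without ischemia replicate 4. The share of all genes with those arrays left out is not given here. The 4 ischemia arrays lay below all 4 controls for 17 members (20.7%) and for 4.28% of all genes, and above all 4 controls for 1 member against 2.27%. The plot of differences by role shows most core subunits of complex I close to 0 and most accessory subunits below it.

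**Figure D1:**
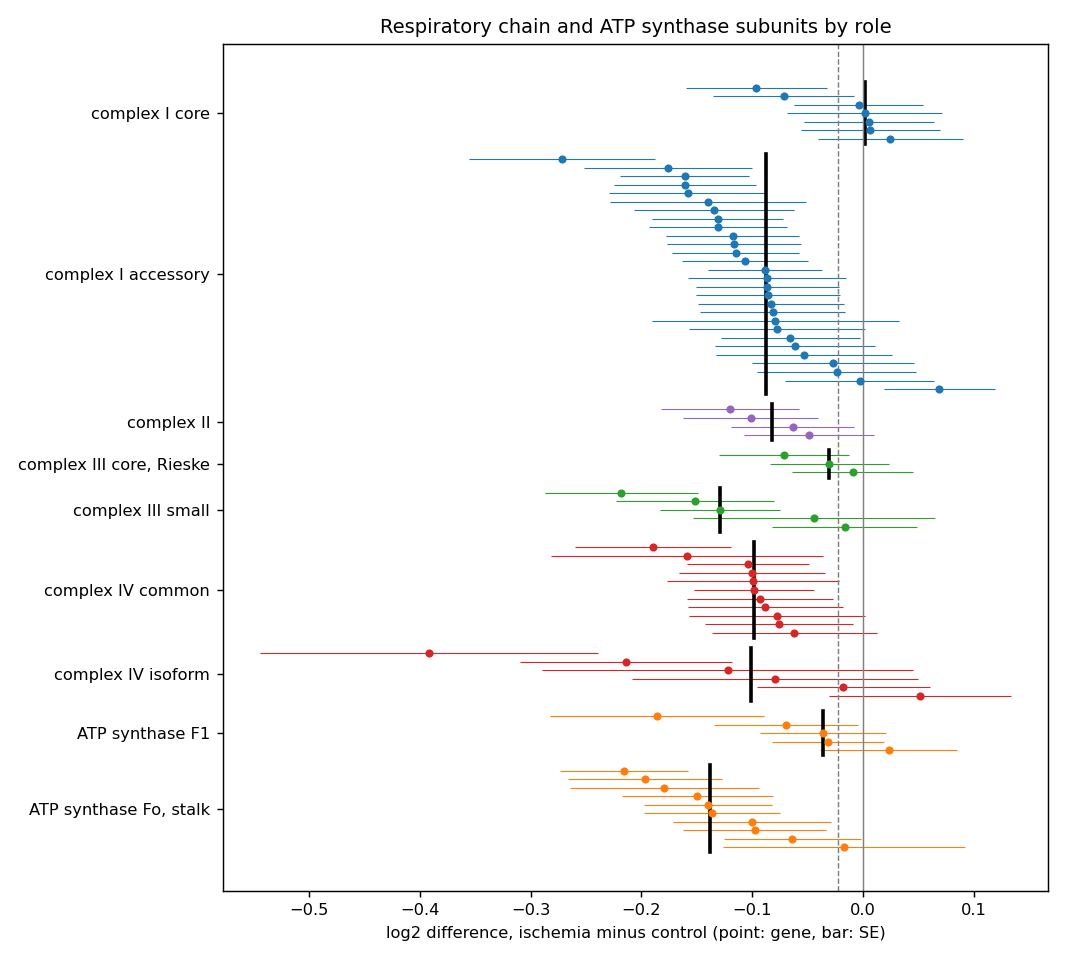
Log2 difference of each tested subunit gene (ischemia minus control, 4 arrays each), one point per gene with its SE as a bar, sorted within each role; the thick vertical line is the median of the role, the solid grey line is 0 and the dashed line is the median of all genes (-0.02). The 7 core subunits of complex I centre on 0, whereas 27 of 28 accessory subunits of complex I and all 10 Fo and stalk subunits of ATP synthase lie to the left of it.

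Complex I is the largest of the 5 enzymes, and 35 of its 35 named subunits were tested, with a median difference of -0.09, or -0.05 after quantile or cyclic loess normalization. Their control means ranged from 3.05 to 7.49, levels that are not set against each other because each probe has its own brightness. The 7 core subunits, which carry the flavin and the iron-sulfur clusters, had a median difference of 0.0016, with 3 lower and 4 higher. For Ndufs1, the large iron-sulfur subunit, the controls read 3.99, 4.17, 4.15 and 4.21 and the ischemia arrays 4.03, 4.17, 4.11 and 4.20. These values overlap throughout, with a difference of 0.0016 (SE 0.07).

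Other core subunits lay close to 0 as well. Ndufv1, which binds NADH, differed by -0.0039 (SE 0.06). Ndufs3 differed by 0.0064 and Ndufs7 by 0.02, both from the module that hands electrons to ubiquinone. The sign held under every alternative for none of Ndufs1, Ndufv1, Ndufs3 and Ndufs7. Ndufv2 and Ndufs8, which hold iron-sulfur clusters, had the lowest differences among the core, -0.10 and -0.07, both with overlapping groups.

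The 28 accessory subunits of complex I had a median difference of -0.09, and 27 of them were lower. After quantile or cyclic loess normalization 24 of 28 were lower. In 8 of the 28 (28.6%) the ischemia arrays lay below every control, against 4.28% of all genes. Ndufb2, a small subunit of the membrane arm, read 6.56, 6.75, 6.72 and 6.50 in control and 6.46, 6.43, 6.21 and 6.35 in ischemia. The groups did not overlap, with control replicate 4 and ischemia replicate 1 the closest, and the difference was -0.27 (SE 0.08, limma adjusted p = 0.330).

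Ndufs5, which sits on the intermembrane side of the membrane arm, read 6.55, 6.63, 6.72 and 6.60 in control. In ischemia it read 6.52, 6.44, 6.46 and 6.44. Ischemia replicate 1 lay just under control replicate 1, without overlap, and the difference was -0.16 (SE 0.06, limma adjusted p = 0.386). Ndufa1, an X-linked subunit needed for assembly of the enzyme, read 5.97, 5.94, 6.12 and 5.94 in control and 5.84, 5.86, 5.87 and 5.75 in ischemia. Control replicate 3 was the high value, the groups did not overlap, and the difference was -0.16 (SE 0.06, limma adjusted p = 0.418).

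Ndufa10, a matrix-side accessory subunit related to nucleoside kinases, was the one member whose ischemia arrays lay above every control. It read 3.22, 3.25, 3.19 and 3.25 in control and 3.29, 3.25, 3.32 and 3.32 in ischemia. Ischemia replicate 2 lay just above the highest control, and the difference was 0.07 (SE 0.05, limma adjusted p = 0.675). Ndufa11, whose promoter holds the NRF1 motif shown above, differed by -0.0030 (SE 0.07), and Ndufa8, with the same motif, by -0.13 (SE 0.06). The remaining accessory subunits ranged from -0.18 (Ndufb6) to -0.02 (Ndufs4).

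Complex II, which also works in the citric acid cycle, has 4 subunits, all nuclear. The 4 genes were lower in ischemia, with a median of -0.08, or -0.05 after quantile normalization. Groups did not overlap in 0 of 4, against 4.28% of all genes lower and 2.27% higher. Sdha, the flavin subunit, read 4.17, 4.11, 4.09 and 4.11 in control and 4.01, 4.0, 4.15 and 4.11 in ischemia. Ischemia replicates 3 and 4 lay among the controls, and the difference was -0.05 (SE 0.06). Sdhb, the iron-sulfur subunit, read 6.48, 6.64, 6.55 and 6.45 against 6.47, 6.39, 6.44 and 6.41, a difference of -0.10 (SE 0.06). The membrane anchors Sdhc and Sdhd differed by -0.06 (SE 0.06) and -0.12 (SE 0.06), and the limma adjusted p of the 4 genes lay between 0.533 and 0.815.

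Complex III was represented by 8 nuclear subunits, all lower in ischemia and 6 of 8 after quantile or cyclic loess normalization. Their median of -0.06 was -0.04 after cyclic loess or normexp processing, -0.10 without control replicate 4 and -0.09 without ischemia replicate 1. The core proteins Uqcrc1 and Uqcrc2 differed by -0.07 (SE 0.06) and -0.0095 (SE 0.05). Uqcrfs1, the Rieske iron-sulfur protein, read 4.85, 4.97, 4.92 and 4.86 in control and 4.84, 4.88, 4.90 and 4.86 in ischemia. These values interleave, and the difference was -0.03 (SE 0.05). The 3 core genes had a median of -0.03 and the 5 small subunits one of -0.13.

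Uqcrq, a small subunit next to the ubiquinone site, read 7.39, 7.49, 7.50 and 7.28 in control and 7.27, 7.21, 7.18 and 7.13 in ischemia. Control replicate 4 and ischemia replicate 1 nearly touched without overlap, and the difference was -0.22 (SE 0.07, limma adjusted p = 0.340). Uqcr10, another small membrane subunit, read 6.28, 6.41, 6.33 and 6.30 against 6.23, 6.21, 6.20 and 6.16. Its groups did not overlap either, with a difference of -0.13 (SE 0.05, limma adjusted p = 0.444). Uqcr11 differed by -0.15 (SE 0.07) with overlap, and the hinge protein Uqcrh by -0.02 (SE 0.07).

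Of the 20 nuclear genes of complex IV, 17 were tested and 16 of these were lower, or 13 after quantile normalization, with a median of -0.10. That median was -0.06 without control replicate 3 and after quantile, cyclic loess or normexp processing. The 11 subunits common to most tissues were all lower, with differences from -0.19 to -0.06, and 8 of 11 were lower after quantile normalization. Cox6c, a membrane subunit, read 6.99, 6.91, 7.13 and 6.88 in control and 6.79, 6.86, 6.78 and 6.72 in ischemia. The highest ischemia array, replicate 2, lay just under the lowest control, and the difference was -0.19 (SE 0.07, limma adjusted p = 0.394). Cox5a, a matrix-side subunit, differed by -0.10 (SE 0.07), and Cox4i1, the regulatory subunit to which ATP binds, by -0.08 (SE 0.07), both with overlap.

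Cox6a1, with the NRF1 motif shown above, read 9.2, 9.32, 9.29 and 9.22 in control and 9.14, 9.19, 9.17 and 9.11 in ischemia. Its groups did not overlap, by a margin smaller than the spread within a group, and the difference of -0.10 (SE 0.06) became 0.03 after quantile normalization. Ndufa4 read 5.61, 5.63, 5.71 and 5.61 against 5.57, 5.58, 5.51 and 5.49. The groups were just apart, with a difference of -0.10 (SE 0.05, limma adjusted p = 0.557).

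A pair of isoforms known to be strong in brain pericytes and under low oxygen had the most negative differences of complex IV. Ndufa4l2 read 0.37, 0.26, 0.03 and 0.43 in control and -0.03, 0.04, -0.55 and 0.07 in ischemia. Control replicate 3 lay among the ischemia arrays and ischemia replicate 3 far below all others, and the difference was -0.39 (SE 0.15, limma adjusted p = 0.412), or -0.25 without ischemia replicate 3. Cox4i2 read -1.24, -1.14, -1.04 and -1.14 in control and -1.19, -1.55, -1.45 and -1.22 in ischemia, with ischemia replicates 2 and 3 the low ones and a difference of -0.21 (SE 0.10, limma adjusted p = 0.467).

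Most markers of pericytes and smooth muscle were also low on ischemia replicate 3. Of 9 listed markers 8 were tested, 6 lower and 2 higher, with a median of -0.10, and their median was lowest in ischemia replicate 3 (-0.27 from the control mean). In the other ischemia arrays it was 0.14, -0.13 and -0.09, and in the controls it lay between -0.06 and 0.10. The pericyte gene Rgs5 read 1.19, 0.89, 1.33 and 1.44 in control and 0.88, 1.04, 0.69 and 0.92 in ischemia, a difference of -0.33 (SE 0.13, limma adjusted p = 0.412). Kcnj8, a potassium channel gene of pericytes, went the other way on ischemia replicate 3, with -0.74 against -2.19, -2.51 and -2.47 in the other ischemia arrays and -2.37, -2.39, -2.14 and -2.72 in control. Myh11, a marker of mature smooth muscle, was not kept. The part of these cells in the isoform values was not tested, and in a bulk sample fewer cells of a type and less RNA per cell cannot be told apart.

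The other isoforms of complex IV had smaller differences, some with wide errors. Cox6a2 and Cox7a1, known from heart and skeletal muscle, differed by -0.12 (SE 0.17) and -0.02 (SE 0.08), and Cox6b2, known from testis, by -0.08 (SE 0.13). Cox7a2l, linked to supercomplexes of complexes III and IV, was the only tested complex IV gene with a higher mean, at 0.05 (SE 0.08) with overlap. Within an array the gap between an isoform and its common partner changed by -0.29 for Ndufa4l2 against Ndufa4, -0.14 for Cox4i2 against Cox4i1 and -0.02 for Cox6a2 against Cox6a1. It changed by -0.0017 for Cox6b2 against Cox6b1, 0.08 for Cox7a1 against Cox7a2 and 0.15 for Cox7a2l against Cox7a2. The groups overlapped in each of these 6 gaps.

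ATP synthase was represented by 15 genes, 14 of them lower in ischemia and 11 after quantile normalization, with medians of -0.10 and -0.06. The 5 genes of the F1 head had a median of -0.04, and after quantile normalization 2 of 5 were lower with a median of 0.0039. Atp5b, the catalytic beta subunit, read 7.76, 7.75, 7.76 and 7.73 in control and 7.72, 7.67, 7.77 and 7.72 in ischemia. Ischemia replicate 3 was the highest of all 8 arrays, and the difference was -0.03 (SE 0.05), or 0.03 after quantile normalization. Atp5a1, the alpha subunit, differed by 0.02 (SE 0.06), and Atp5c1, the rotating gamma shaft, by -0.04 (SE 0.06).

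All 10 genes of the membrane part and the stalks were lower in ischemia, or 9 of 10 after quantile, cyclic loess or normexp processing, with a median of -0.14. Their median lay at -0.08, 0.06, 0.10 and -0.06 in the controls and at -0.10, -0.12, -0.15 and -0.17 in the ischemia arrays, relative to each gene's control mean. The groups did not overlap in this median. In 4 of the 10 genes (40%) the ischemia arrays lay below every control, against 4.28% of all genes. Atp5k, subunit e, which helps ATP synthase form dimers, read 6.61, 6.71, 6.76 and 6.65 in control and 6.51, 6.44, 6.49 and 6.42 in ischemia. Its difference of -0.22 (SE 0.06, limma adjusted p = 0.283) had the smallest p of all members.

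Atp5g1, Atp5g2 and Atp5g3 encode the same mature c subunit of the rotating ring. Atp5g1 read 7.08, 7.24, 7.32 and 7.13 in control and 7.05, 6.98, 6.92 and 7.01 in ischemia, apart but close between replicate 1 of each group, with a difference of -0.20 (SE 0.07, limma adjusted p = 0.383). Atp5g2 differed by -0.15 (SE 0.07) with overlap and Atp5g3 by -0.14 (SE 0.06) without. The gaps among the 3 genes changed by -0.05, -0.06 and -0.01, each with overlapping groups. Atp5h, subunit d of the peripheral stalk, read 7.26, 7.32, 7.38 and 7.20 against 7.19, 7.13, 7.16 and 7.12, a difference of -0.14 (SE 0.06, limma adjusted p = 0.438). Atp5o, the stalk protein that holds the F1 head, differed by -0.02 (SE 0.11).

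**Figure D2:**
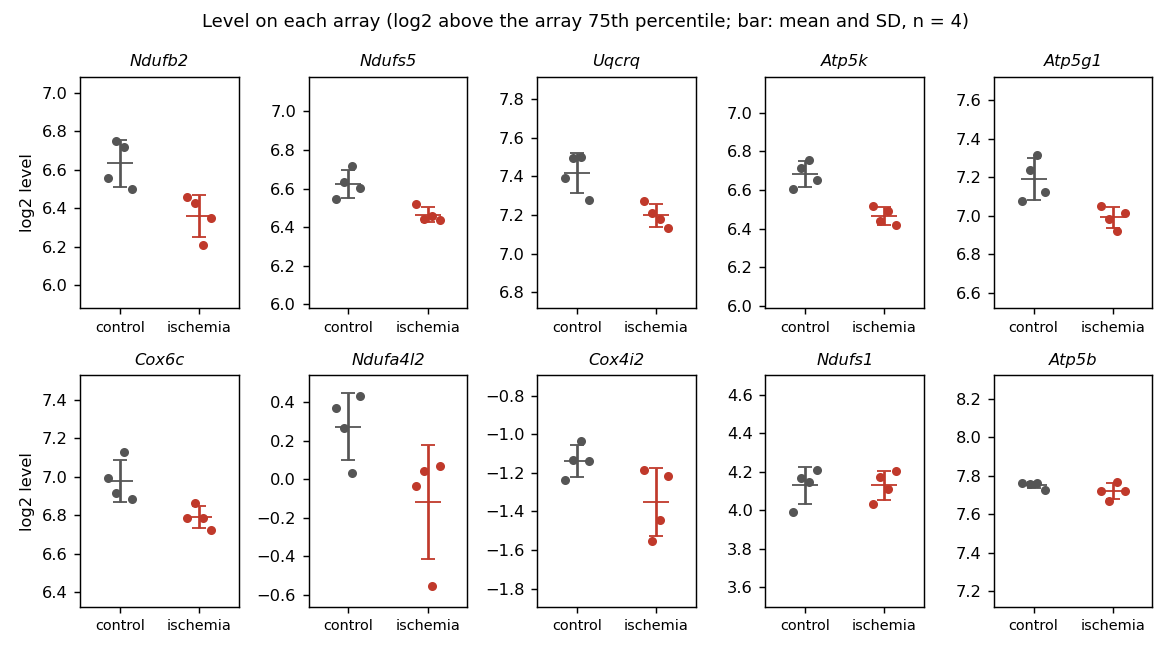
Level of 10 member genes on each array (points; grey control, red ischemia), as log2 above the array's 75th percentile, with the mean and SD of the 4 arrays of each group; every panel spans the same range. Ndufb2, Ndufs5, Uqcrq, Atp5k, Atp5g1 and Cox6c separate the groups, Ndufa4l2 and Cox4i2 spread widely in ischemia, and the catalytic subunits Ndufs1 and Atp5b overlap.

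The core subunits had medians nearer 0 than the other subunits in complexes I, III and V, whereas in complex II the values of Sdha and Sdhb interleaved with those of Sdhc and Sdhd. Here the 17 subunits of the catalytic or conserved core are those of complex I (7), Sdha and Sdhb, the 3 of complex III and the 5 of F1, and the division was drawn with the values in view. Of these 17, 12 were lower, with a median of -0.03, 0 at an unadjusted limma p under 0.05 and 0 with groups apart. Of the other 56 common subunits, 55 were lower, with a median of -0.10, 10 at an unadjusted p under 0.05 and 17 (30.4%) with the ischemia arrays below every control. Over all genes 7.63% were lower at that p and 4.28% had the ischemia arrays below every control. Within each array the median of the 56 minus that of the 17 was -0.0047, 0.0046, 0.08 and -0.06 in control and -0.03, -0.03, -0.09 and -0.10 in ischemia. Control replicate 4 lay below ischemia replicates 1 and 2, so the groups overlapped in this gap. An equal shift of all genes on an array leaves the gap unchanged, but a shift that depends on brightness need not. The median control level was 5.54 for the 17 and 6.35 for the 56. Over all genes the median difference was -0.02 at mean levels of 4 to 6 and -0.06 at 6 or more. The part of brightness in this gap was not tested.

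**Figure D3:**
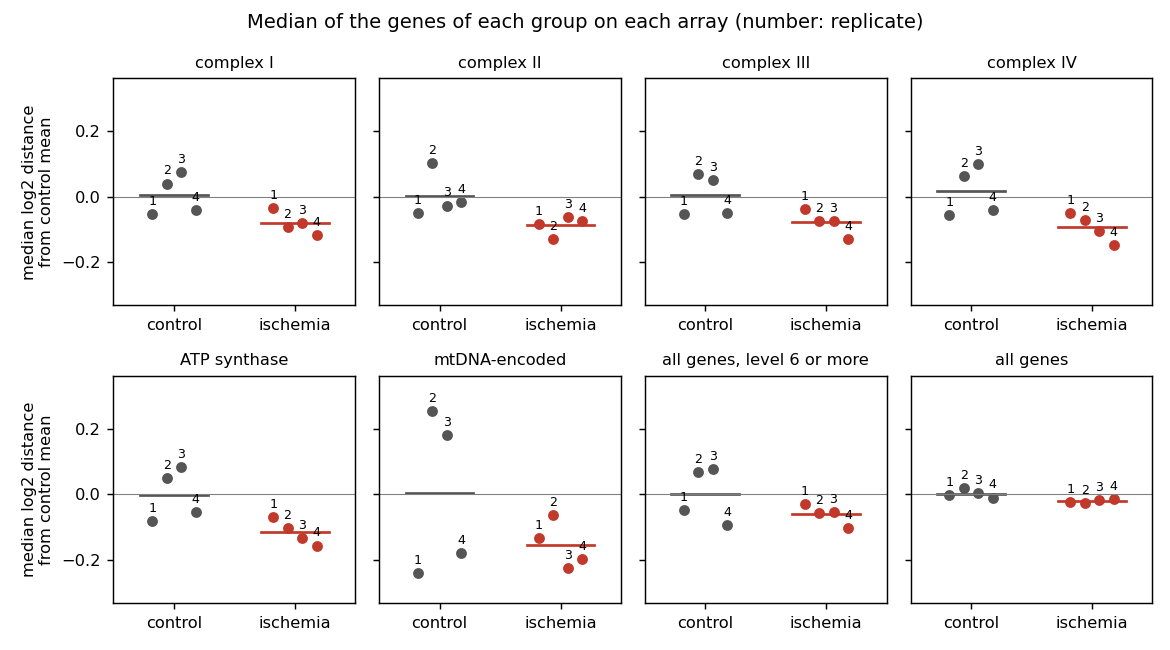
Median, over the genes of each group, of the log2 distance from each gene's control mean, by array (grey control, red ischemia; the number is the replicate and the line the mean of the 4 arrays). Ischemia replicates 2 to 4 lie below all controls for complexes I to IV and ATP synthase, and ischemia replicate 1 lies among the controls except in complex II. Control replicates 1 and 4 lie lower than controls 2 and 3 except in complex II. The same split of the controls is seen for genes encoded by mitochondrial DNA and for all genes at level 6 or more.

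Bright genes as a class were lower on the ischemia arrays. Among all 1004 genes with a mean level of at least 6, 822 (81.9%) were lower, with a median of -0.06, and 7.27% had all ischemia arrays below the controls. Among the 42 subunit genes at that level, 40 were lower, with a median of -0.10, and 31.0% were apart. Array medians of the 1004 genes were -0.05, 0.07, 0.08 and -0.09 in control and -0.03, -0.06, -0.05 and -0.10 in ischemia. The part of this brightness-related shift in the members' values was not tested.

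Scalings that act on the whole intensity range reduced both shifts. After quantile normalization the 1004 bright genes had a median of 0.0055, the 17 core subunits one of 0.0039 (8 of 17 lower) and the 56 other common subunits one of -0.06 (47 of 56 lower). After cyclic loess normalization these medians were -0.01, 0.0022 (8 of 17 lower) and -0.06 (50 of 56 lower). Cytosolic ribosomal protein genes, another bright class, had 73 of 80 lower with a median of -0.05, and 29 of 80 lower with a median of 0.02 after quantile normalization.

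**Figure D4:**
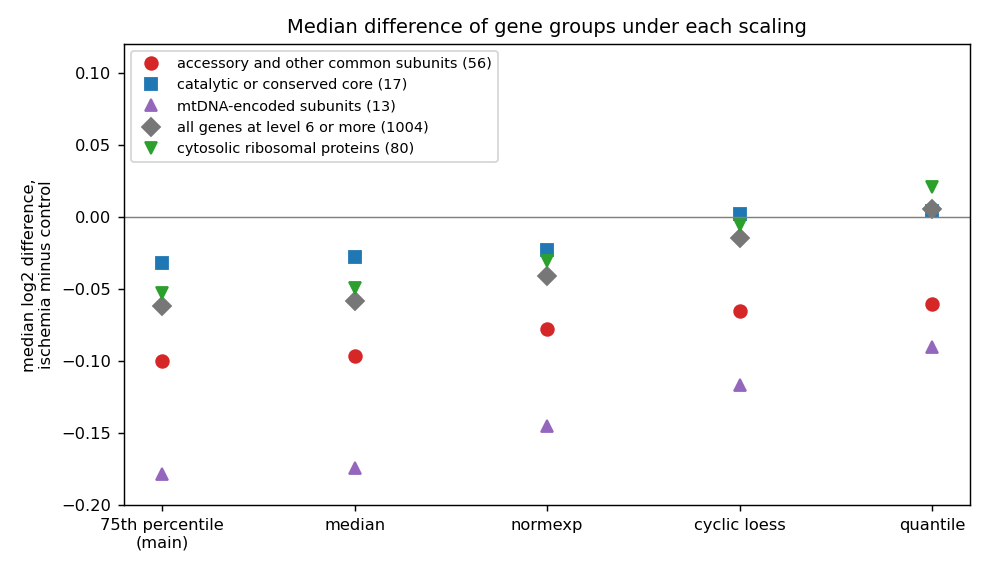
Median log2 difference (ischemia minus control) of 5 groups of genes under 5 ways of scaling the arrays, with the number of genes in the legend. The 56 other common subunits stay below 0, between -0.10 and -0.06, while the 17 core subunits, all genes at level 6 or more and the ribosomal protein genes move to between -0.01 and 0.02 after cyclic loess or quantile normalization.

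Many members had more than 1 probe. Of 122 kept member probes 108 were lower and 14 higher, while 56.7% of all 27131 kept probes were lower. At an unadjusted limma p under 0.05, 20 member probes were lower, against 7.06% of all kept probes, and 1 was higher, against 3.05%. The higher one was a dim probe of Ndufb11, with a difference of 0.25 (limma adjusted p = 0.327 over all kept probes). The brighter probes of Ndufb11 differed by -0.11 and -0.12. In 25 of the 28 genes with several kept probes the probes had 1 sign, and the median range between probes of a gene was 0.06. The widest range, 0.44, was that of Ndufv3, where the bright probe differed by -0.09 and the dim ones by -0.35 and 0.09. The members with the largest differences are shown by the first 30 of the 60 bases of their probe, in the order and direction of the array files, since a probe's sequence decides which transcripts it reads.
Ndufb2: ctgacactgtaaactctctggacgagagca
Uqcrq: ctgggagaggaatccacactgtagtcttga
Ndufa4l2: tgtccctggggatcaaacagaagcagccgt
Cox4i2: ctgagtcctgtctccactcccttctccaat
Atp5k: CGAGCTTGCTTTTCTCTAGTCGTTGAGAAC
Atp5k, probe placed on Y: cagCGAGCTTGCTTTTCTCTAGTCGTTGAG
In the files' mm9 coordinates these probes lie at chr6:39548336-39549425 (Ndufb2, across an intron), chr11:53242451-53242510 (Uqcrq), chr10:126954149-126954208 (Ndufa4l2) and chr2:152590711-152590770 (Cox4i2). Capitals in the Atp5k oligos mark letters that lie in the gene's main probe, at chr5:108862263-108862322. The second oligo, placed by the files at chrY:1599617-1599676, shares a run of 27 of its 60 bases with it, and whether it also reads transcripts of the chromosome 5 gene was not tested. The main Atp5k probe differed by -0.22 and the oligo at chrY:1599617-1599676 by -0.16. Another Atp5k probe, with a difference of -0.21, is also placed by the files on Y, at chrY:1599680-1599738. Its longest run shared with the main probe is 6 of its 60 bases. Whether it reads transcripts of the chromosome 5 gene was not tested either. The other probes of Ndufb2 and Uqcrq differed by -0.21 and -0.23. The second, dimmer Atp5g1 probe differed by -0.02 only, against -0.20 for the main one, and that of Atp5h by -0.03 against -0.14. The median GC content of the probes used was 42.5% for members and 43.3% for all genes.

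Other nuclear genes of the complexes have names outside the rule. Of 5 such genes 4 were lower, with a median of -0.18 over the 5. All 4 reached an unadjusted limma p under 0.05, against 7.63% of all genes, and 0 were called. Ndufab1, the acyl carrier protein of complex I, read -0.98, -1.10, -1.07 and -0.89 in control and -1.37, -1.33, -1.32 and -1.21 in ischemia, with every ischemia array below the controls and a difference of -0.30 (SE 0.07, limma adjusted p = 0.243). Atpif1, the inhibitor of ATP synthase running in reverse, read 8.42, 8.65, 8.66 and 8.45 against 8.39, 8.38, 8.37 and 8.35. Its groups were apart by less than the spread of the controls, with a difference of -0.17 (SE 0.07, limma adjusted p = 0.443). Usmg5 and 2010107E04Rik, 2 small ATP synthase proteins, differed by -0.23 and -0.18, and Cyc1, cytochrome c1 of complex III, by 0.05 (SE 0.06).

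The 13 protein genes of mitochondrial DNA were all tested, and 12 were lower, or 10 after quantile normalization, with a median of -0.18. An unadjusted limma p under 0.05 was reached by 0 of the 13, against 10.9% of all genes in either direction. The controls were far apart, with array medians of -0.24, 0.25, 0.18 and -0.18. The ischemia medians of -0.13, -0.06, -0.22 and -0.20 lay within that range. COX3 read 8.73, 9.0, 8.95 and 8.60 in control and 8.67, 8.69, 8.63 and 8.55 in ischemia, with control replicates 2 and 3 high and a difference of -0.18 (SE 0.10, limma adjusted p = 0.539). ND6, the gene read from the other strand, was the one higher, at 0.06 (SE 0.11).

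Genes that build or feed the chain did not pass the test in either direction. Of 48 assembly factors listed 29 were tested, 19 lower and 10 higher. At an unadjusted limma p under 0.05, 5 were lower and 0 higher, against 7.63% and 3.24% of all genes. Taco1, a translational activator for a mitochondrial subunit of complex IV, differed by -0.41 (SE 0.15, limma adjusted p = 0.401) and Atpaf2, a chaperone of F1, by 0.12 (SE 0.06). Of 19 tested electron carriers and ubiquinone synthesis genes 14 were lower, 2 at an unadjusted p under 0.05, against 7.63% of all genes. Etfb, a subunit of the electron transfer flavoprotein, differed by -0.23 (SE 0.08, limma adjusted p = 0.375).

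Genes of the citric acid cycle and pyruvate oxidation divided differently, with 12 of 26 lower and 14 higher and a median of 0.0039. At an unadjusted limma p under 0.05, 0 were lower and 2 higher, against 7.63% and 3.24% of all genes. These were Pdk4 and Idh3b. Every ischemia array of Idh3b lay above the controls, with a difference of 0.15 (SE 0.06, limma adjusted p = 0.444). Pdk4, which inhibits pyruvate dehydrogenase, read -1.99, -2.01, -1.91 and -2.03 in control and -1.62, -1.33, -1.73 and -1.99 in ischemia. Ischemia replicate 4 lay among the controls, and the difference was 0.32 (SE 0.13, limma adjusted p = 0.420). Fh1, fumarase, differed by -0.16 (SE 0.07). Of 17 genes of cristae and supercomplexes 13 were lower, 4 at an unadjusted p under 0.05, against 7.63% of all genes. Higd1a, a small membrane protein associated with complexes III and IV, read 4.96, 4.98, 5.06 and 4.95 against 4.86, 4.74, 4.8 and 4.75, apart between the groups with a difference of -0.20 (SE 0.06, limma adjusted p = 0.294).

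Regulators of mitochondrial biogenesis showed 9 of 16 lower and 7 higher. At an unadjusted limma p under 0.05, 2 were higher and 0 lower, against 3.24% and 7.63% of all genes. Peo1, the helicase that replicates mitochondrial DNA, read -1.20, -1.15, -1.19 and -1.10 in control and -0.87, -0.92, -1.0 and -0.85 in ischemia. Every ischemia array lay above the controls, with a difference of 0.25 (SE 0.06, limma adjusted p = 0.243). Nrf1, which encodes the factor whose motif is shown above, read 0.81, 0.88, 1.01 and 0.90 against 1.02, 1.05, 1.14 and 1.14. Its groups were also apart, with a difference of 0.19 (SE 0.06, limma adjusted p = 0.365), while the coactivator gene Ppargc1a differed by -0.03 (SE 0.08).

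Transcripts of tissue next to the cortex differed between arrays. Of 8 listed choroid plexus markers 5 were tested, and their median control level was low, at -3.13. The 8 meningeal markers were all tested, with a median control level of -2.07. Relative to the control means, ischemia replicate 4 had a median of 3.28 over the tested choroid plexus markers and ischemia replicate 1 one of 1.40 over the meningeal markers. Without those 2 arrays the members' median difference was -0.10, with 69 of 82 lower and 7 at an unadjusted limma p under 0.05. The share of all genes without those arrays is not given here. Red cell markers were lower in 6 of 6, with a median of -0.43, and their part in the members' values was not tested.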

How the data were processed

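RNA of each pup was labelled with Cy3 from 50 ng of total RNA, per the labels' protocols, and scanned on a one-colour Agilent mouse array. Agilent Feature Extraction 10.7.3.1 is named in the submitters' processing notes. The authors deposited intensities per spot: the processed signal, corrected for background by that software, and the mean and background signals. Their deposited value table is a ratio that equals this signal over a single constant for each array, with deviations of at most 0.0498%. The constant's meaning stays unknown (column medians of 0.0836, 0.0867, 0.0898, 0.0909, 0.0913, 0.0932, 0.0954 and 0.1003), and the table served as an alternative only.

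Control spots were left out and spots of a probe averaged, without outlier spots (134 to 144 per control array, 165 to 189 per ischemia array), which dropped 26 probes. Values are processed signals on the log2 scale, with the 75th percentile of each array subtracted. Probes well above background on at least 4 of 8 arrays (27131) were kept, and the brightest stood for each gene name in the files. limma 3.58.1 in R 4.3.3 (lmFit, eBayes) compared 4 with 4 arrays, with Benjamini-Hochberg adjustment over 19772 genes and a threshold of 0.05. The number of arrays limits the precision. The fit was tested on simulated data. Alternatives were normexp with an offset of 50, median, quantile and cyclic loess scaling, other filters, probe rules and variance models, array weights, the replicate number as a block, the value table, and arrays left out.

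The members and gene lists were chosen with earlier results of these data known. Named genes are, in each complex, the 3 lower and 3 higher with the smallest p, all of complex II, catalytic subunits, isoform pairs and, in each other list, the 1 lower and 1 higher with the smallest p. Of the genes this rule names, 1 is not reported here. Ndufv2, Ndufs8, Ndufa8, Ndufa11, Ndufb6, Ndufb11, Ndufs4, Ndufv3, Uqcrc2, Uqcrh, Atp5o, Usmg5, 2010107E04Rik, Idh3b, Nrf1, Ppargc1a, Rgs5 and Kcnj8 were named after their values were seen. Probe coordinates are those of the files (mm9) and count from 1; their place within gene models was not analysed here.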

Additional observations from a re-analysis of the deposited data

Results flagged for a closer look

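Of 122 sets of 4 arrays checked (55 genes and 6 medians over members, in each group), 3 held an array far from the others by Dixon's gap criterion, where about 6.1 are expected by chance at this level. ND6 in control replicate 3 was low, at 0.42 against 0.69 to 0.71 in the other controls (gap over range 0.914). Ndufa1 in control replicate 3 was high, at 6.12 against 5.94 to 5.97 (gap over range 0.841). Ndufa4l2 in ischemia replicate 3 was low, at -0.55 against -0.03 to 0.07 (gap over range 0.835), and its difference without that array was -0.25.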

How the results depend on the processing

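Under each of 21 other settings 0 members were called, and the lowest adjusted p of a member was 0.167 (Atp5k, trended and robust variance). The members' median stayed below 0 throughout, between -0.11 and -0.07 with 1 array left out. The count of members lower at an unadjusted limma p under 0.05, 11 in the main analysis, was 3 with median scaling, 6 with quantile normalization, 7 with no filter on dim probes, 20 with trended and robust variance, 6 with cyclic loess normalization, 7 without ischemia arrays 1 and 4 (the last 2 settings chosen after seeing the data), and 5 to 15 with 1 array left out. With the replicate number as a block it was 7, and 0 genes were called instead of 1. The 7.63% of all genes lower at that p holds for the main analysis. These counts are therefore not set against all genes under their own setting. Arrays of the same number lie in the same slide column. Over all genes, their deviations from the group means correlated by 0.08, -0.06, 0.29 and 0.39. Between arrays of different numbers the correlations ranged from -0.23 to 0.18, so those of replicates 3 and 4 were the highest. The labels do not say that arrays of the same number are paired otherwise. Genes called over all genes numbered 1, 20 with trended and robust variance, 2 with median scaling and 0 to 1 otherwise.

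Of 1155 gene values under other settings, 28 changed sign, in 15 of 55 named genes. After quantile normalization Atp5b was 0.0298, Atp5c1 0.0039, Cox4i1 0.0092, Cox6a1 0.0293, Cox8a 0.0142 and Ndufv1 0.0225; after cyclic loess normalization Atp5b was 0.0181, Atp5c1 0.0022 and Ndufv1 0.0293. Without ischemia arrays 1 and 4 Cyc1 was -0.0051. With 1 array left out the range was -0.0086 to 0.0537 for Atp5a1, -0.2063 to 0.0054 for Cox6a2, -0.1761 to 0.0413 for Cox6b2, -0.0809 to 0.0158 for Cox7a1, -0.0106 to 0.1465 for ND6, -0.045 to 0.0339 for Ndufs1, -0.0186 to 0.0383 for Ndufs3, -0.0167 to 0.0554 for Ndufs7 and -0.0262 to 0.0276 for Ndufv1. The cause of these changes was not tested. Dim probes gave wider errors, with an SE of 0.17 for Cox6a2 against 0.05 for Atp5b, and the 3 members not well above background gave no difference.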

Other observations

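Some members were low on the arrays of replicate 4 in both groups, which lie in the same column of the slide. Uqcrb, Cox7c, Ndufb5, Atp5o and Atp5s were more than 0.2 log2 units below the mean of the other 3 arrays in control and in ischemia alike. For Cox7c, a small subunit of cytochrome c oxidase, the distance was -0.41 in control and -0.32 in ischemia. These 5 genes are 6.10% of the 82 tested members, and 6.91% of all genes met the same limit on replicate 4.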
